A study of Mus musculus with 2 samples.

Results

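The proximal promoter peaks of a Dnmt1 DamID profile of cleavage-stage mouse embryos were described, which are the peaks the deposited table places between 3 kb before and 1 kb after the start of the assigned gene. They number 219 of 8226 peaks (2.66%, exact 95% interval 2.33 to 3.03) and are assigned to 207 genes. In DamID, a chromatin protein is fused to Dam, a bacterial enzyme that methylates adenine in GATC, so that sites the protein visits acquire methyl-adenine. Genomic DNA was taken at the 4- to 8-cell stage from pools of 50 embryos injected with a Dnmt1-V5-Dam construct and of 50 embryos injected with Dam alone, each pool giving 1 library. The zygotes came from BCF1 (C57BL/6 x CBA/CA) females that were 5 weeks old and had been superovulated. The Dam-only library shows where untethered Dam reaches DNA. Because each pool mixes 50 embryos at 4 to 8 cells, a height is an average over cells that may differ in stage.

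Dnmt1 is the maintenance DNA methyltransferase, which copies CpG methylation onto the new strand after replication. Promoters in mammals fall broadly into CpG-rich ones, mostly kept free of CpG methylation, and CpG-poor ones, which are often methylated where the gene is silent. In the cleavage embryo much of the methylation inherited from the gametes is lost, while some sequences, among them imprinted regions and certain retroelements, keep it.

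For each peak the table gives 1 whole-number height per library, Dnmt1-Dam and Dam-only, without stating whether heights are raw or scaled. The total reads per library are unknown. Each listed peak was higher in the Dnmt1-Dam library by selection, so the heights show how tall a peak is and not whether a site is bound. With 1 library per group there is no replicate check and no p-value. Shares carry exact Clopper-Pearson intervals and differences between shares carry Newcombe intervals, all at 95% and covering counting error only. A total of 15 features were compared between each pair of peak sets, without adjustment for their number.

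To show what promoter sequence some of the peaks close to a start site lie in, the 250 bases before the start are given for 6 genes. They were taken from the RefSeq promoter table (build GRCm38.p6), are written 5′ to 3′ in the direction of the gene, and have each GATC, the letters Dam methylates, in capitals. These 6 are all the genes whose peak lies between 250 bp before and 50 bp after the start, which have 1 RefSeq start, and whose gene length in the file is within 5% of the RefSeq gene. They are not the closest peaks: those of Pacc1 at 7 bp and Gnb5 at -81 bp, for example, did not meet the length condition. The peak coordinates are of build mm9, so a peak is placed in a sequence only by its distance from the start, assuming that both sources use the same start.
Ptpn23: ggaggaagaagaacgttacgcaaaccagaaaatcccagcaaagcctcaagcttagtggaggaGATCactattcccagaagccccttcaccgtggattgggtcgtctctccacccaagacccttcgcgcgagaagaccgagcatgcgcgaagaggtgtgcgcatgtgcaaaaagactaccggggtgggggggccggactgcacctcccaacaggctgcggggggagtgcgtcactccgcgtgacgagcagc
Mtmr6: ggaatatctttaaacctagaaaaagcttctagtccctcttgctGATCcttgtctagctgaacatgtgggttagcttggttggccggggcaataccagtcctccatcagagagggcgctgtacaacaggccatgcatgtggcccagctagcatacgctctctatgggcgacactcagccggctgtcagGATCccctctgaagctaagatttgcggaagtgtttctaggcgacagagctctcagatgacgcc
Pim2: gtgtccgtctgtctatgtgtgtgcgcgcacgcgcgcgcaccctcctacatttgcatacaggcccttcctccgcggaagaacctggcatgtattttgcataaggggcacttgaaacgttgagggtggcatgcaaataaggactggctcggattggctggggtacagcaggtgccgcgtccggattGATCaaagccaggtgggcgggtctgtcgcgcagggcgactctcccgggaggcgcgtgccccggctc
Ipmk: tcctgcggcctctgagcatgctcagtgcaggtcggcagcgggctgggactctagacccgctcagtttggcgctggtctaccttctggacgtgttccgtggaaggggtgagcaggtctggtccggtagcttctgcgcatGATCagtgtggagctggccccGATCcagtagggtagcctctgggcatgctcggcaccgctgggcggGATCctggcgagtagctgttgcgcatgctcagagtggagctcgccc
Cdpf1: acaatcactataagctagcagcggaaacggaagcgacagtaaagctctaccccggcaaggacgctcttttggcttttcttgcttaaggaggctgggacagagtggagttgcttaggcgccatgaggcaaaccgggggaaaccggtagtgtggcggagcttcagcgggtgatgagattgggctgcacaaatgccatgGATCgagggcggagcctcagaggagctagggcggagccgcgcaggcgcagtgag
Qtrt1: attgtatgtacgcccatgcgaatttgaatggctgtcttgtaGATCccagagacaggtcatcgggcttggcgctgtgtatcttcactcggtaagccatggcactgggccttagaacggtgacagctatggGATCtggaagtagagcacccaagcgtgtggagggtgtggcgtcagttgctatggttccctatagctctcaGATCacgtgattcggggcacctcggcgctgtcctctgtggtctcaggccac

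Ptpn23 encodes a phosphatase-related protein of endosomal sorting, and its sequence is chr9:110408211-110408460 on the minus strand. Its peak, at -197, had a height of 16 in the Dnmt1-Dam and 3 in the Dam-only library, and the single GATC begins at -188. Mtmr6 encodes a phosphoinositide phosphatase (chr14:60264955-60265204, plus strand). Its peak at -174 reached 15 in the Dnmt1-Dam and 6 in the Dam-only library, with GATC at -207 and -63.

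Pim2 is a serine/threonine kinase gene on the X chromosome (chrX:7878056-7878305, plus strand). Its peak at -211 had heights of 11 in the Dnmt1-Dam and 2 in the Dam-only library, and the only GATC of the window begins at -66. The inositol phosphate kinase gene Ipmk (chr10:71347513-71347762, plus strand) had a peak of 8 in the Dnmt1-Dam and 1 in the Dam-only library at -200, with GATC at -112, -91 and -46. These windows are dense in CpG, with 22 in Pim2, 18 in Ptpn23 and 16 in Ipmk, against 8 in Mtmr6.

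Cdpf1 (chr15:85811698-85811947, minus strand) had a peak of 7 in the Dnmt1-Dam and 1 in the Dam-only library at -132, and its window holds 16 CpG and a GATC at -54. Qtrt1 encodes a subunit of the enzyme that puts queuine into tRNA (chr9:21411587-21411836, plus strand). Its peak at -200, at which the file names a SINE, had heights of 7 in the Dnmt1-Dam and 1 in the Dam-only library. GATC begins there at -209, -121 and -51, and the window holds 12 CpG. Both genes sit at 7, the lowest Dnmt1-Dam height in the table.

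Peaks were spread over the whole promoter window and did not gather at the start. The median distance was -1225 bp (negative is upstream), with quartiles at -1999 and -210.5 bp. Going from upstream to downstream, the 4 bins of 1 kb held 55, 64, 55 and 45 peaks. The bin just downstream of the start was the lowest, at 45 peaks (exact Poisson interval 32.8 to 60.2), and its interval overlapped those of the other 3. A total of 21 peaks (9.59%) lay within 250 bp of the start and 48 (21.9%) within 500 bp.

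Proximal promoters held 54.8 peaks per kb of distance (47.7 to 62.5), against 47.9 (42.9 to 53.3) in distal promoters, the window from 10 kb to 3 kb upstream. Each peak is listed with a single assigned gene, so a position upstream of a gene may be counted under another gene. How far this affects either density was not tested. The ratio of the densities was 1.14 (0.960 to 1.36), which contains 1. With only peaks at a Dam-only height of 1, the difference in density was 8.07 peaks per kb (0.472 to 16.05), against 6.89 (-1.96 to 16.1) with all of them, so that its interval no longer contained 0. From 1 kb to 10 kb inside genes the density was 64.8 peaks per kb, with 54 to 76 per bin, although short genes do not reach these distances. At the outer edges of the class, peaks of Stt3b at -2982 bp (9 in the Dnmt1-Dam and 3 in the Dam-only library) and Hyal4 at 994 bp (7 and 1) fell inside it, while those of Keap1 at -3005 bp (9 and 2) and Cndp2 at 1004 bp (21 and 1) fell outside it. Only 2 peaks of other classes lay in the same window of another of the 4903 transcripts listed in the table.

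**Figure D1:**
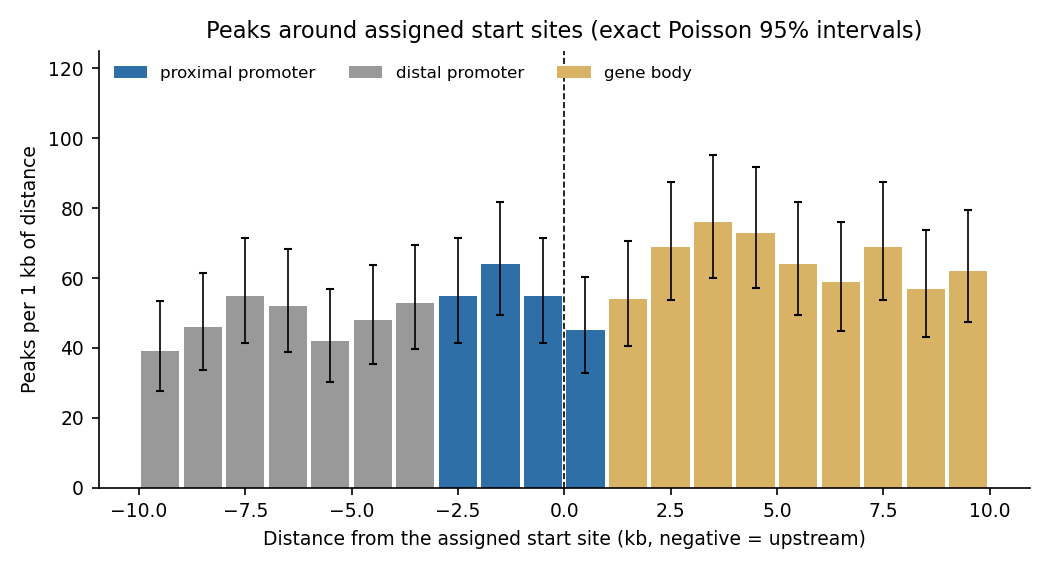
Peaks per 1 kb of distance (vertical axis) by distance from the start of the assigned gene in kb (horizontal axis), with exact Poisson 95% intervals. Proximal promoter bins hold 45 to 64 peaks, and their intervals overlap those of the distal promoter bins.

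The highest promoter peaks had heights in the twenties and a Dam-only height of 1 in most cases. Ints10, a subunit gene of the Integrator complex that processes small nuclear RNAs, led with 28 in the Dnmt1-Dam and 1 in the Dam-only library, 108 bp downstream of its start (chromosome 8, 71317961, mm9). Gfra2, which encodes a receptor for neurturin, followed with 27 in the Dnmt1-Dam and 1 in the Dam-only library at -1436 bp (chromosome 14, 71288501). Abr had 25 in the Dnmt1-Dam and 1 in the Dam-only library at 315 bp (chromosome 11, 76384561). In the 3 cases the Dam-only library was at the lowest height the table lists, and whether 1 also stands for 0 is unknown.

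The transmembrane protein gene Tmem185b differed from these, with 23 in the Dnmt1-Dam and 7 in the Dam-only library at 927 bp (chromosome 1, 121423671). Smarcc2, a core subunit gene of the SWI/SNF chromatin remodeler, had 22 in the Dnmt1-Dam and 1 in the Dam-only library, in a SINE at -1181 bp (chromosome 10, 127895111). The file gave no name for Smarcc2, which was matched by its transcript accession. A pair of genes of lipid metabolism came next with 21 in the Dnmt1-Dam and 1 in the Dam-only library: Pla1a, a phospholipase gene, at -796 bp in a SINE and simple repeat, and Cers1, a ceramide synthase gene listed as Gdf1 in the file, at 852 bp. Of these 7 highest peaks, 4 lay in the kilobase downstream of the start.

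Among the next 8, the ribosomal protein gene Rps16 had 19 in the Dnmt1-Dam and 1 in the Dam-only library in a SINE at -1457 bp. Arl9, a small GTPase-like gene, had 19 in the Dnmt1-Dam and 2 in the Dam-only library at -2759 bp. Abhd16b, an abhydrolase gene named BC050777 in the file, had 18 in the Dnmt1-Dam and 1 in the Dam-only library at 146 bp, the second-highest of the 21 peaks within 250 bp of a start. The others reached 16 in the Dnmt1-Dam library, namely Rgs14, Sh3bp2, the antigen-presentation gene H2-DMb2, Ptpn23 and Dnajb9, an endoplasmic reticulum co-chaperone gene. Their Dam-only heights were 1, 1, 3, 3 and 6 in that order, so the 15 highest peaks include both clean and Dam-accessible positions.

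**Figure D2:**
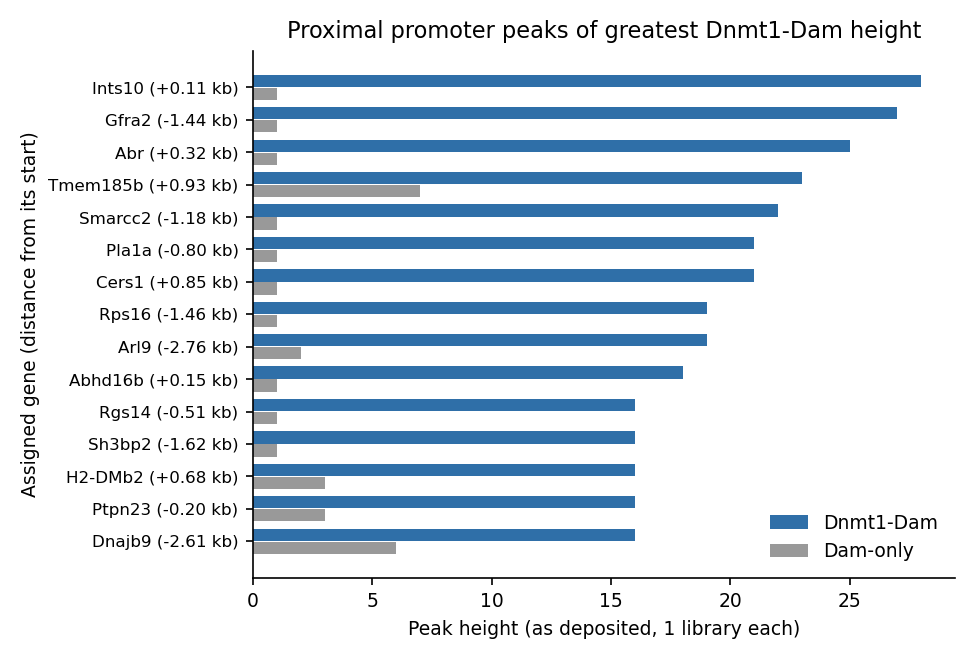
Deposited peak height (horizontal axis) in the Dnmt1-Dam and Dam-only libraries for the 15 proximal promoter peaks of greatest Dnmt1-Dam height, with the assigned gene and the distance from its start. Dnmt1-Dam heights run from 28 down to 16, and Dam-only heights are 1 at 10 of the 15 peaks, 7 at Tmem185b and 6 at Dnajb9.

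The heights of the class had the same median and quartiles as the rest. Their Dnmt1-Dam height had a median of 9 (quartiles 7 and 11), as had the other 8007 peaks. It ran up to 28 in the class, while the highest of the others was at 202. The mean log2 height was higher by 0.02, with an SD over peaks of 0.43 in both sets. A height of at least 15 was reached by 24 members (11.0%, 7.15 to 15.9), where 8.66% of all peaks reached it. A Dnmt1-Dam height at least 10 times the Dam-only height was found at 58 members (26.5%, 20.8 to 32.9), against a background of 23.4%. Both intervals contain the background, so neither share is a result about promoters.

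Within the class, 58 members sat at a height of 7, 35 at 8, 30 at 9 and 33 at 10, and 7 members reached 20 or more. In the kilobase downstream of the start, 8 of 45 peaks (17.8%, 8.00 to 32.1) reached a height of 15, against 16 of 174 upstream (9.20%, 5.35 to 14.5). The difference of 8.58 points had an interval of -1.38 to 22.6. Of the 583 peaks from 1 kb to 10 kb inside genes, 49 (8.40%) reached it, which the first kilobase exceeded by 9.37 points (0.519 to 23.1). Single bins varied, with 8 of 54 peaks (14.8%) from 1 kb to 2 kb inside genes and 2 of 69 (2.90%) from 2 kb to 3 kb. In distal promoters, 9 of 53 (17.0%) reached it from 4 kb to 3 kb upstream. Such a share is therefore not particular to the first kilobase. The split at the start and the comparison with gene bodies were chosen after the values had been seen.

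**Figure D3:**
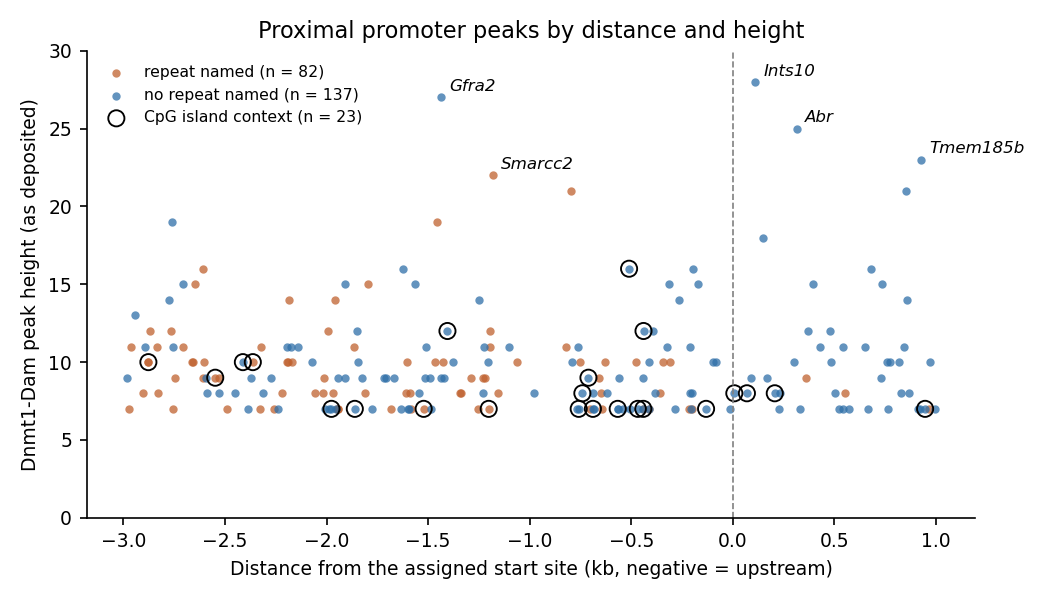
Dnmt1-Dam height (vertical axis) of the 219 proximal promoter peaks by distance from the start in kb (horizontal axis), colored by whether a repeat is named, with a ring around peaks in CpG island context. Tall peaks occur on both sides of the start, while repeats lie almost wholly upstream.

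Among the listed peaks, the Dam-only library, which marks DNA open to free Dam, rose above its lowest height about as often at promoters as elsewhere. Its height was 1 at 166 of 219 members, and above 1 at 53 (24.2%, 18.7 to 30.4), against 24.2% of the other peaks and 30.1% of distal promoter peaks. The differences were 0.047 points (-5.24 to 6.20) and -5.95 points (-13.2 to 1.72). At every listed peak the Dnmt1-Dam height was at least 2 times the Dam-only height, so low peaks could hold only low Dam-only heights. These shares therefore do not measure how open promoters are to free Dam. The greatest Dam-only heights of the class were 7 at Tmem185b and at Galc, which encodes a lysosomal galactosylceramidase (14 in the Dnmt1-Dam library, at -2774 bp). Dnajb9 and Mtmr6 followed with 6, and then Timm8b, a mitochondrial import gene, with 5 against a Dnmt1-Dam height of 15 at 395 bp.

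CpG island context was rare in the file's column. The file places 3 members (1.37%, 0.283 to 3.95) in a CpG island, 15 (6.85%, 3.88 to 11.0) in an island shore and 5 (2.28%, 0.745 to 5.25) in a shelf, the zones that flank an island. Of all peaks, 0.559% lay in islands, 3.5% in shores and 2.55% in shelves. The shore share exceeded that of the other peaks by 3.44 points (0.752 to 7.60), and by 0.393 points (-1.95 to 5.40) at heights of at least 9. Against the 4.18% of distal promoter peaks in shores, the difference was 2.67 points (-1.13 to 7.14). From 1 kb to 10 kb inside genes, 6.35% of peaks lay in shores. The 3 island peaks belonged to Atxn2, an RNA-binding protein gene (10 in the Dnmt1-Dam and 1 in the Dam-only library, at -2877 bp and also in a SINE), the fatty acid carrier gene Fabp3 (9 and 3, at -711 bp) and Elavl1, which encodes an mRNA-stabilizing protein (7 and 1, at -441 bp). None of them was within 250 bp of its start. Any context was named at 23 members (10.5%, 6.77 to 15.3), against 9.25% of distal promoter peaks and 6.51% of all other peaks. The excess over the other peaks was 4.00 points (0.548 to 8.79).

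The excess over the other peaks lay among the lowest peaks. Context was named at 8 of 126 members with a height of 9 or more (6.35%, 2.78 to 12.1) and at 15 of 93 members with a height of 7 or 8 (16.1%, 9.32 to 25.2), a difference of -9.78 points (-19.1 to -1.44). The other peaks had 6.89% at heights of 9 or more and 6.08% at 7 or 8. Restricted to heights of 9 or more, the difference between promoter and other peaks was -0.54 points (-3.74 to 5.18). Rgs14, a regulator of G-protein signaling, was the only member with context to reach a height of 15, with 16 in the Dnmt1-Dam and 1 in the Dam-only library, in a shore at -511 bp. Car2, a carbonic anhydrase gene (shore, -1405 bp), and Pemt, a phospholipid methyltransferase gene (shelf, -440 bp), followed with 12 each in the Dnmt1-Dam library and with 1 and 5 in the Dam-only library. These 3 were picked out after their values had been seen.

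At most of the CpG-rich promoters with a near peak, the file's column named no island context. Of 48 peaks within 500 bp of a start, 33 belong to genes with 1 RefSeq start. In 14 of the 33 the promoter window of 300 bases (250 before and 50 after the start) was CpG-rich, here a GC content of at least 50% and an observed over expected CpG of at least 0.6. The file names an island at 1 of these 14 (Elavl1), a shelf at 2 (Pacc1 and Cdpf1) and no context at 11. The 11 include Pim2, with an observed over expected CpG of 1.06, Ptpn23 with 0.869, and the SWI/SNF subunit gene Smarcb1 with 0.978. Several of these peaks lie outside the window, such as those of Smarcb1 at 232 bp and Elavl1 at -441 bp. The letters thus describe the promoter and not always the peak. The gene length check used for the sequences above was not applied here, so the start may differ between the sources. Which island set the file used is not given in the sources used here, and a window of 300 bases is not an island call. The shares in island context above are those of the file's column.

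Over all members, 166 of the 207 genes matched a RefSeq promoter and 136 had a single start. CpG-rich windows made up 72 of these 136 (52.9%, 44.2 to 61.6), against 44.6% of 14731 protein-coding genes with a single start. The median number of CpG per window was 16 for the members and 13 for all. GATC, which reads the same on both strands, was also present in 72 of the 136 windows (52.9%), against 47.4% of all. The TATA letters TATAAA, searched on the strand of the gene, were in 14 (10.3%, against 9.80% of all). CCAAT, searched on both strands, was in 51 (37.5%, against 39.6%) and GGGCGG, also on both strands, in 69 (50.7%, against 45.3%). The background shares lie within the members' intervals for all 4 motifs, and for CpG-rich windows 44.6% lies just above the lower bound of 44.2%. Most members' peaks lie outside these windows, so the letters describe the genes' promoters and not the peaks.

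**Figure D4:**
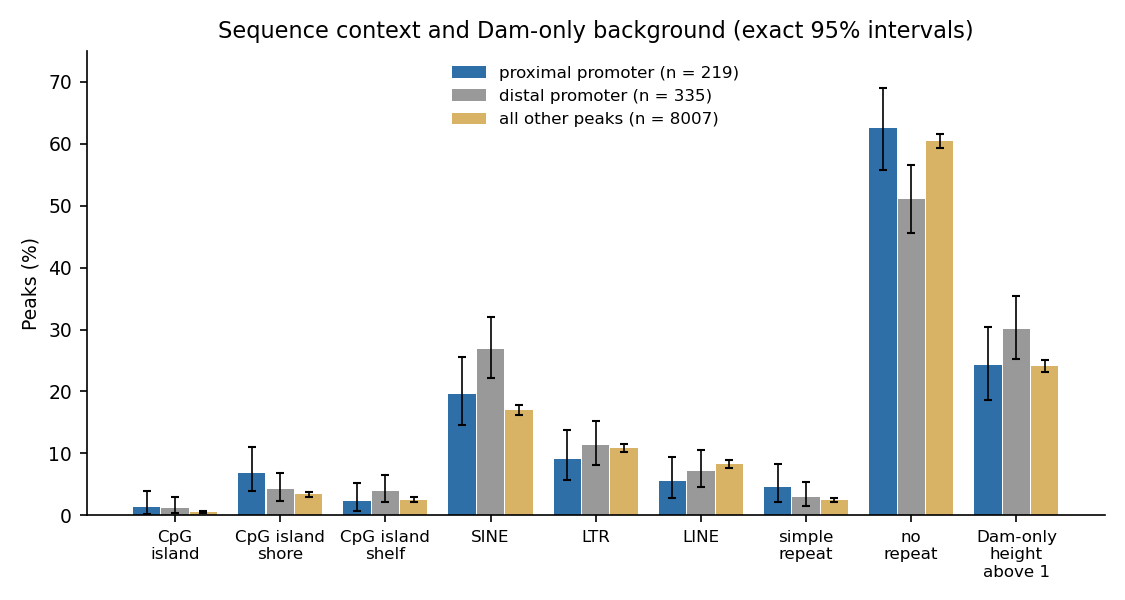
Share of peaks (vertical axis, %) with each sequence context, or with a Dam-only height above 1, for proximal promoter, distal promoter and all other peaks, with exact 95% intervals. Proximal promoter peaks name no repeat at 62.6%, against 51.0% in distal promoters and 60.4% of all other peaks.

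Retroelements were named at 73 members (33.3%, 27.1 to 40.0), against 43.6% of distal promoter peaks and 35.0% of all other peaks. The difference from distal promoters was -10.2 points (-18.2 to -1.93), and from the other peaks it was -1.71 points (-7.71 to 4.85). Among peaks with a height of at least 9, the difference from distal promoters was -7.10 points, with an interval from -17.7 to 3.93. SINEs were named at 43 members (19.6%, 14.6 to 25.5), against 26.9% of distal promoter peaks and 17.1% of all peaks. LTR elements were named at 20 (9.13%, 5.67 to 13.8), against 11.3% and 10.8%, and LINEs at 12 (5.48%, 2.86 to 9.38), against 7.16% and 8.18%. The members' intervals contain the shares of all peaks for the 3 classes. Simple repeats were named at 10 (4.57%, 2.21 to 8.24), against 2.42% of the other peaks, a difference of 2.14 points (0.045 to 5.79) that shrank to 0.155 points (-1.49 to 4.56) at heights of at least 9. No repeat was named at 137 members (62.6%, 55.8 to 69.0), against 51.0% of distal promoter peaks and 60.4% of all other peaks. The difference was 11.5 points (3.06 to 19.6) from distal promoters and 2.12 points (-4.54 to 8.36) from the others.

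The repeats were not spread evenly over the window. In the kilobase downstream of the start 42 of 45 peaks named no repeat (93.3%, 81.7 to 98.6), against 95 of 174 upstream (54.6%, 46.9 to 62.1), a difference of 38.7 points (25.4 to 47.3). SINEs were named at 0 of the 45, which allows a share of up to 6.67% by 3 counts of the total (7.87% by the exact interval), and at 43 of the 174 upstream peaks (24.7%, 18.5 to 31.8). From 1 kb to 10 kb inside genes, SINEs were named at 153 of 583 peaks (26.2%, 22.7 to 30.0), so the low share did not extend further into genes. The exceptions downstream were Myh3, an embryonic myosin gene, in a LINE at 359 bp (9 in the Dnmt1-Dam and 1 in the Dam-only library), Psd3 in a simple repeat at 553 bp (8 and 2) and Rps13, a ribosomal protein gene, in snRNA sequence at 967 bp (7 and 1). The split at the start was chosen after the values had been seen, and the share of genomic sequence that each repeat class covers there was not analysed here.

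LTR elements lay farther out. The genes given for them and for LINEs were picked out after their values had been seen. Within 1 kb of the start on either side, 0 of 100 peaks named one, which allows a share of up to 3% by the same rule (3.62% by the exact interval), against 20 of 119 peaks from 1 kb to 3 kb upstream (16.8%, 10.6 to 24.8), a difference of -16.8 points (-24.5 to -10.05). The nearest was at -1195 bp from Tmx3, a disulfide isomerase gene, with 11 in the Dnmt1-Dam and 1 in the Dam-only library. The highest were Dnajb9, described above, and Hmgn1, a nucleosome-binding protein gene, with 14 in the Dnmt1-Dam and 2 in the Dam-only library at -1959 bp.

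LINEs were named at 2 of the 100 peaks within 1 kb and at 10 of the 119 beyond it (8.40%), a difference of -6.40 points (-12.9 to -0.137). The highest LINE member was Col28a1, a collagen gene, with 15 in the Dnmt1-Dam and 1 in the Dam-only library at -1794 bp. SINEs were named at 12 of the 100 and at 31 of the 119 (26.1%, 18.4 to 34.9), a difference of -14.1 points (-24.0 to -3.53). The 12 nearer ones all lay upstream of the start. In upstream bins of 1 kb, going outward, the SINE share was 21.8%, 21.9% and 30.9%, against 0% in the kilobase downstream. No step was thus seen at 1 kb upstream, and the pooled difference includes the downstream peaks without a SINE.

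**Figure D5:**
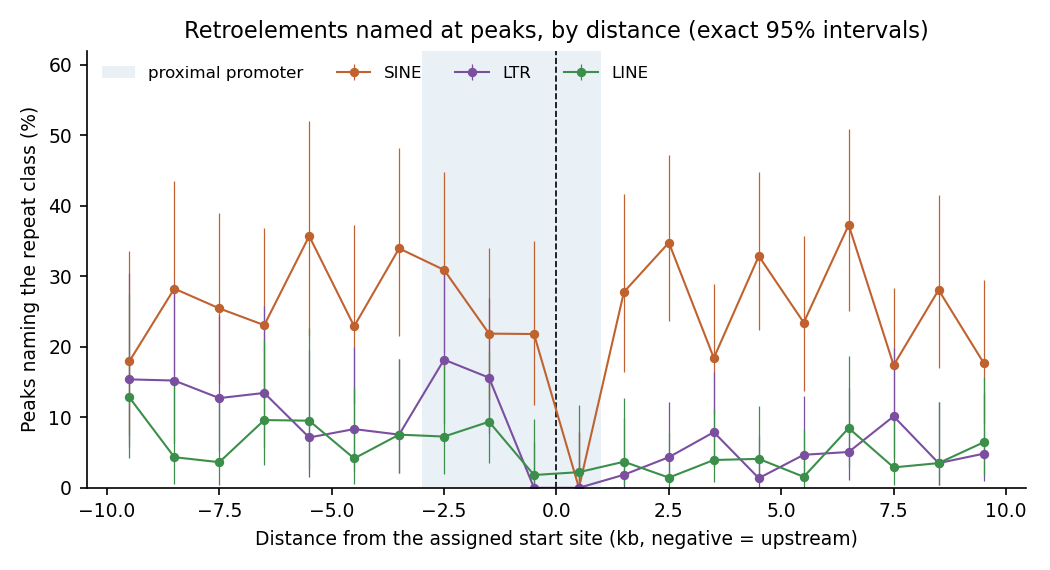
Share of peaks naming a SINE, an LTR element or a LINE (vertical axis, %) in bins of 1 kb by distance from the assigned start (horizontal axis, kb), with exact 95% intervals and the proximal promoter window shaded. The SINE share is 0 in the first kilobase downstream and 27.8% in the next one, and the LTR share is 0 on both sides of the start.

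Of the 207 genes, 195 had 1 promoter peak and 12 had 2. In 10 of the 12 the pair lay 80 to 150 bp apart, closer than the selected fragment size of about 300 bp, and merging peaks within 1 kb left 209 runs. The Rps16 pair had 19 and 15 in the Dnmt1-Dam library, 110 bp apart, with a Dam-only height of 1 at both. Slco6b1, an organic anion transporter gene, had 15 and 14 in the Dnmt1-Dam library at 736 and 856 bp, with 1 at both in the Dam-only library. The elastin gene Eln had 15 and 12 in the Dnmt1-Dam library, in SINE sequence at -2647 and -2767 bp, with 4 and 1 in the Dam-only library.

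In the other closely spaced pairs the higher Dnmt1-Dam height ran from 16 at Sh3bp2 and 15 at Hilpda to 7 at Cyfip1. L3mbtl1, a chromatin-compacting reader protein gene, had 12, the receptor kinase gene Mst1r had 11, Fbp2 had 10 and Eif1a, a translation initiation factor gene, had 9. Only Gtsf1l and Hdac4 held separate positions. Gtsf1l had 10 in the Dnmt1-Dam and 2 in the Dam-only library at -344 bp, and 8 and 1 at -2314 bp. Hdac4, a histone deacetylase gene, had 8 and 1 in a LINE at -1591 bp and 7 and 1 in a DNA transposon at -411 bp.

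For 150 genes (72.5%) no peak of another class was listed. The whole table has 8226 peaks at 4903 transcripts, and the matching share for genes of other classes was not computed. Whether 72.5% is high is therefore unknown. Of these, 143 had a single promoter peak and 7 had 2, while the remaining 57 genes had further peaks outside the promoter. Gfra2 had 5 others and Kif16b, a kinesin gene, had 7. Members lay on all chromosomes with peaks other than Y. On chromosomes with members, the share of peaks that lay in proximal promoters ran from 1.14% on chromosome 3 (0.371 to 2.64) to 3.76% on chromosome 17 (1.96 to 6.48). Only on chromosome 3 did the interval lie below the 2.66% of all peaks, and its upper bound lies just under that share. The 21 chromosomes with a peak were compared without adjustment for their number. The X chromosome had 5 members of 197 peaks (2.54%, 0.829 to 5.82).

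By gene family, named by the start of the symbol, no large group dominated. Solute carriers, membrane transporters of small molecules, had 8 promoter peaks at 7 genes (3.65% of members, 1.59 to 7.07), against 2.03% of all peaks. After Slco6b1, the highest were Slc38a8 (11 in the Dnmt1-Dam and 3 in the Dam-only library), Slc24a4 and Slc17a4 (10 and 1 each). Olfactory and vomeronasal receptors, silent outside sensory tissue as a rule, had 4 (1.83%, 0.5 to 4.61), against 0.498% of all peaks. These were Olfr1208 with 11 in the Dnmt1-Dam and 5 in the Dam-only library at 431 bp, Olfr12 and Olfr140 with 10 and 1, and Olfr1052 with 9 and 2. These receptors belong to a large family of related genes, and how multiply mapped reads were treated is not given in the sources used here.

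Ribosomal protein genes had 5 promoter peaks at 4 genes (2.28%, 0.745 to 5.25), against 0.547% of all peaks. Below the Rps16 pair, Rpl10a, Rps21 and Rps13 each had 7 in the Dnmt1-Dam and 1 in the Dam-only library, at -1253, -283 and 967 bp. The interval lies above the share of all peaks for ribosomal protein genes, but with 1 peak kept per run of 1 kb, chosen after the values had been seen, it was 0.524 to 4.83%, against 0.544% of all runs. For olfactory receptors the lower bound of 0.5% barely clears the share of all peaks. Gene length was not taken into account in any family. Genes with symbols of chromatin enzymes and remodeler subunits had 4 promoter peaks (1.83%, 0.5 to 4.61, against 0.778% of all peaks). These were Smarcc2, the Hdac4 pair, and Smarcb1 with 8 in the Dnmt1-Dam and 1 in the Dam-only library at 232 bp.

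Genes of RNA processing had 3 promoter peaks (1.37%, against 0.924% of all peaks), at the spliceosome core gene Prpf8 (11 in the Dnmt1-Dam and 1 in the Dam-only library, at 842 bp), Ddx52 and Rbm18. Several large families were sparse when counted by the start of the symbol. Genes of like function with other symbols were left out, such as the kinase gene Pim2 and the small GTPase gene Rhebl1. These counts therefore do not show that such genes are rare among the members. Zinc finger genes had 2 (0.913%, 0.111 to 3.26, against 1.58% of all peaks), at Zfp11 and Zbtb38, and small GTPases with their regulators 2 (0.913%, against 1.47%), at Rasgrp1 and Rabggtb. Genes of the ubiquitin system had 1 (0.457%, 0.012 to 2.52, against 1.74%), at Rnf26, as had homeobox, Sox, Fox, Pax and Tbx genes (against 1.36%), at Nkx2-9 with 9 in the Dnmt1-Dam and 3 in the Dam-only library. Genes with kinase-type symbols had 1, at Map4, a microtubule protein gene that the letters of its symbol place there (0.457%, against 1.46%), and mitochondrial respiration genes had 1, at Uqcrfs1 (0.457%, against 0.243%). No gene with a microRNA or small RNA symbol was assigned any peak in the table. The members are all assigned to mRNA transcripts, and whether small RNA genes could be assigned at all was not tested. The intervals of the sparse families contain the shares of all peaks.

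The peaks within 250 bp of a start belonged to genes of unlike function. After Ints10, Abhd16b, Ptpn23, Mtmr6 and Pim2, the highest were Rhebl1, a small GTPase gene, at -96 bp and the G-protein subunit gene Gnb5 at -81 bp (10 in the Dnmt1-Dam and 1 in the Dam-only library each). Taar3, a trace amine receptor gene of the olfactory epithelium, had 9 in the Dnmt1-Dam and 1 in the Dam-only library at 167 bp. A few members tied to chromatin were picked out after their values had been seen. Dmap1, named for the binding of its product to Dnmt1, had 11 in the Dnmt1-Dam and 2 in the Dam-only library in a SINE at -2321 bp. Ing3, a histone acetyltransferase subunit gene, had 15 and 1 at -314 bp, and H3f3b, a gene of histone variant H3.3, had 8 and 1 in a SINE at -2903 bp.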

How the data were processed

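Per the labels' protocols, each pool's DNA went through adapter ligation and 15 PCR cycles, with fragments near 300 bp kept. Tools named in the submitters' processing notes are CASAVA and BWA, with mm9 as the build. Not given in the sources used here are the peak caller, its thresholds, the treatment of duplicates and depth. Intervals and floors cover counting error only, since PCR copies are not independent molecules. The deposited signal is a whole-number height per library at each peak, on a grid of 10 bp and with no width. It was not treated as a read count, and no count test was run.

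Distances were computed from the deposited gene ends and strand. Names came from RefSeq (GRCm38.p6) by accession, for 206 of 207 genes. Of 10 members without a name in the file, 9 were named this way. Medians, shares and intervals used Python 3.11.15, pandas 2.3.3, NumPy 2.4.6 and SciPy 1.17.1. Intervals were tested on simulated data. The log2 ratio of heights used a pseudocount of 1.

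Genes were named by rule: the 15 highest members, those in islands, the 8 highest within 250 bp of a start, the 5 of greatest Dam-only height, genes with more than 1 member and up to 4 per family. The members and lists were chosen with earlier results of these data known. Alternatives were heights of at least 9 or 15, 1 peak per 1 kb run or per gene, a window of 1 kb on either side, a Dam-only height of 1, other pseudocounts, a filter on the summed height and scaling.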

Additional observations from a re-analysis of the deposited data

How the results depend on the processing

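Of 67 planned recalculations of 14 shares, heights and densities, 47 stayed within the interval or spread of the main value and 20 moved beyond it. For the mean height and the median height ratio the spread was the SD over peaks. That band is wide for a mean or median, from -0.407 to 0.449 around a height difference of 0.021. Staying within it therefore says little about stability. With heights of at least 15, which leave 24 members, proximal promoters made up 3.37% of peaks, any CpG island context 4.17%, islands 0%, retroelements 25%, LTR elements 4.17%, peaks without a repeat 75%, upstream peaks 66.7% and Dam-only heights above 1 33.3%. With heights of at least 9, island context was 6.35% and Dam-only heights above 1 were 36.5%. With 1 peak per gene, proximal promoters made up 3.71%. Within 1 kb of the start, retroelements were 14%, SINEs 12%, LTR elements 0%, LINEs 2%, peaks without a repeat 81%, upstream peaks 55% (in a window of equal sides) and Dam-only heights above 1 18%. The median log2 ratio of heights was 2.17, and was 0.71 with a pseudocount of 10 and 0.046 after scaling to the sums over all peaks. A pseudocount of 10 is above the median Dnmt1-Dam height of 9 and shrinks any ratio. Scaling makes the library sums equal over peaks that were all selected for a higher Dnmt1-Dam height. Its low median was thus set by construction and does not measure enrichment. The cause of the other shifts was not tested.

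Differences in points were recalculated in settings chosen after seeing the data: 28 of 42 kept their direction with an interval on the same side of 0. A further 12 kept their direction with an interval containing 0, and 2 turned, also with intervals containing 0. The CpG island context difference from other peaks was -0.54 at heights of at least 9 and -1.65 at 15. For shores it was 0.393 at 9, 0.388 at 15 and 3.54 within 1 kb. For simple repeats it was 0.155 at 9, 2.86 at 15, 2.11 with 1 peak per gene and 2.55 within 1 kb. From distal promoters, the retroelement difference was -7.10 at 9 and -22.2 at 15, and that of peaks without a repeat 11.1 at 9. Downstream against upstream, SINEs differed by -25 and peaks without a repeat by 37.5 at 15, where few peaks remain. No paired analysis was possible because each group is 1 library. Unknown depth leaves single heights without an error.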
